A study of Homo sapiens with 4 samples.

Results

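The genes described here are 37 members of the antioxidant system governed by the transcription factor NRF2, chosen by name from the pathways of glutathione, thioredoxin, peroxiredoxin, NADPH supply, detoxification and iron storage. The choice was made with earlier results of these data known. All 37 gene symbols matched 1 identifier each among the 60658 identifiers of the expression tables, and 36 of the 37 passed the filter of a mean FPKM of at least 1 over the 4 libraries, as 14803 genes did in all. The remaining member, AKR1C3, is given by its values alone. FPKM is the number of sequenced fragments per kilobase of gene length, scaled to the size of the library. The study worked with HT29 and LIM1215, both established human colorectal cancer cell lines. In each line, 1 library came from cells with a negative control small interfering RNA (siRNA) and 1 from cells with an siRNA against TMEM161A, a gene for a transmembrane protein that has been linked to the adaptive response to oxidative stress. The TMEM161A siRNA carries the same label, si2, in both lines, and untreated cells or a second siRNA were not analysed here. The 4 groups hold 1 library each, so within a line there is no error between replicates and no test, and the second line is the only repeat.

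Cells meet oxidants and reactive chemicals with enzymes that use glutathione, a small thiol, or thioredoxin, a small protein thiol, and both are kept reduced with NADPH. NRF2, encoded by NFE2L2, is marked for degradation by its partner KEAP1 and a ubiquitin ligase. When oxidants or electrophiles modify KEAP1, NRF2 persists, pairs with small MAF proteins and binds the antioxidant response element near genes for glutathione synthesis, quinone reduction, NADPH production and iron storage. The colon epithelium is exposed to oxidants and food-borne electrophiles, and many tumours keep this programme active.

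As a check of the labels, the FPKM of TMEM161A was 42.6 with the control siRNA and 4.64 with its own in HT29, against 39.1 and 7.61 in LIM1215. Depth was read from the steps between low values, and 1 FPKM corresponded to about 18.1 to 21.6 fragments for each kilobase. The epithelial genes EPCAM, KRT8, KRT18, KRT19 and CDH1 lay between 41.6 and 4657 in all 4 libraries. Of the other markers fixed for colorectal epithelium, KRT20 (0.306 and 0.815), CDX1 (0 in both) and VIL1 (0.0397 and 0) were at or near 0 in the control and knockdown libraries labelled HT29, and CDX2 was at 8.29 and 8.04. In LIM1215 these 4 markers lay between 67.8 and 261. The leukocyte markers PTPRC and CD3E were at 0 in every library, and of the fibroblast markers COL1A1 was at 4.83 to 17.6 while COL1A2 was at most 0.0502. Summed levels were 0.0725 to 0.195 over 3 leukocyte markers, 5.82 to 18.1 over 3 fibroblast markers and 0.0283 to 0.582 over 2 endothelial markers. With these markers missing, the identity of the libraries labelled HT29 is in doubt and was not tested. In what follows HT29 means the libraries so labelled, and every HT29 value and every comparison between the lines carries that doubt.

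The letters that NRF2 binds are shown first, for members whose values are described below. The core of the antioxidant response element, TGACNNNGC, was searched on both strands of the RefSeq promoter windows (GRCh38.p14), each 300 bases long, from 250 bases before to 50 bases after a gene's start. Of the 37 members 29 had a window. GSS, GSR, PRDX1, PRDX6, SOD1, AKR1B10, HMOX1 and FTH1 had none. The core was found in 10 of the 40 member windows (25%), belonging to 9 genes, and in 13.3% of all 35116 windows. The 9 genes are GCLM, TXNRD1, ME1, GSTP1, GPX2, KEAP1, PGD, EPHX1 and MGST1. They include 5 of the 18 members with a window that were lower in both knockdown libraries and 4 of the other 11. Of the 5 members called lower in HT29 below, GCLM alone holds the core in its window. Distances below run from the RefSeq start of each window. By the GENCODE positions used elsewhere here, the GCLM stretch spans the gene start, and the cores of GSTP1 and KEAP1 lie after it. The stretches below read 5′ to 3′ on the strand that carries the core, which is in capitals. A single core is shown for each gene. Further cores not shown are TGACGGAGC and TGACAAAGC for TXNRD1, TGACGGTGC for ME1 and TGACACGGC for KEAP1.
GCLM (chr1:93909445-93909475, plus strand, core centred 30 bases before the start): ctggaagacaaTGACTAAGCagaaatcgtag
TXNRD1 (chr12:104215669-104215699, plus strand, 95 bases before the start): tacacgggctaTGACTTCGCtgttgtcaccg
ME1 (chr6:83431169-83431199, minus strand, 133 bases before the start): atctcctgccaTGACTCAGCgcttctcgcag
GSTP1 (chr11:67583735-67583765, plus strand, 62 bases before the start): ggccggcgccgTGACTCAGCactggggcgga
KEAP1 (chr19:10502783-10502813, plus strand, 27 bases before the start): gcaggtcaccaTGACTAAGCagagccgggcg
GPX2 (chr14:64942848-64942878, plus strand, 118 bases before the start): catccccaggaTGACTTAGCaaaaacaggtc

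The cores shown for GCLM and KEAP1 have the same 9 letters, TGACTAAGC, and so do those shown for ME1 and GSTP1, TGACTCAGC. The latter contain TGACTCA, the motif of the AP-1 factors, which occurs in 4.95% of all windows and 7.5% of member windows. GCLM, TXNRD1, ME1 and GSTP1 are shown as members lower in both knockdown libraries, KEAP1 as one that shares its letters with GCLM but was not, and GPX2 as one nearly absent in HT29. The choice followed their values. A match describes letters in a window and not a bound site, and a window without one says nothing about NRF2 at that gene.

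The members were abundant. Their median FPKM, averaged over the libraries, was 119.5, against 13.1 over all 14803 genes, and the ferritin genes FTH1 and FTL, at 3310 and 3239, stood far above the rest. Summed over all 37 members, control and knockdown had 11650 and 11629 FPKM in HT29, and 14064 and 14295 in LIM1215. This near balance joined opposite parts, with FTH1 on one side. FTH1 and FTL together went from 5332 to 6115 in HT29 and, in LIM1215, from 6895 to 7853, or 115% and 114% of control, although FTL by itself was lower in both lines. The other 35 members went from 6318 to 5514 and from 7169 to 6442, or 87.3% and 89.9% of control. As a share of all summed FPKM, these 35 genes held 0.804% in each control library, 0.664% in the HT29 knockdown and 0.720% in the LIM1215 knockdown library.

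**Figure D1:**
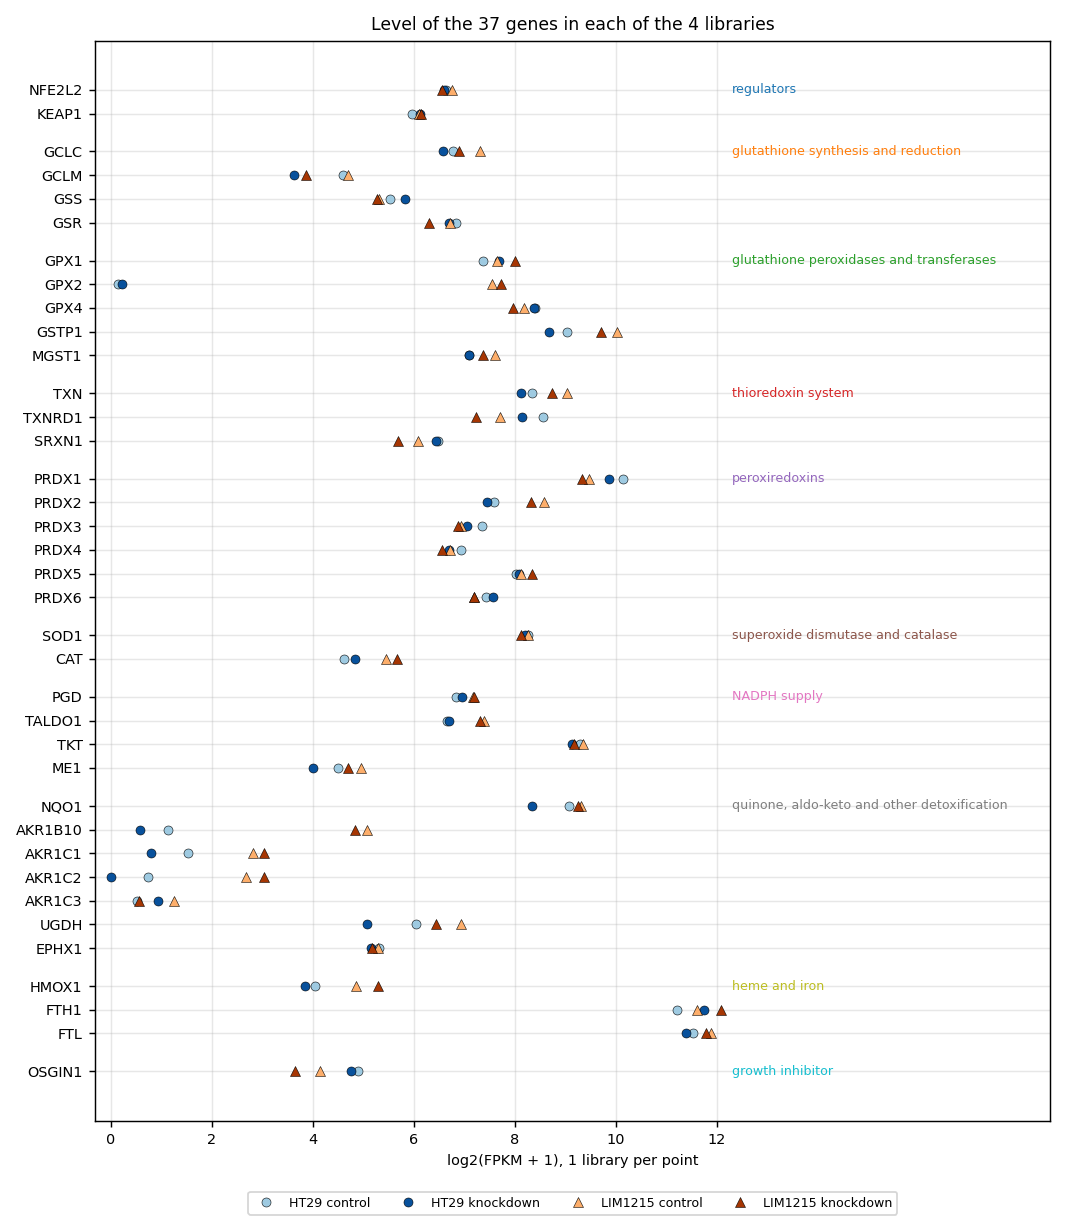
Level of each of the 37 genes as log2(FPKM + 1), 1 point per library, with HT29 as circles and LIM1215 as triangles, control in light and TMEM161A knockdown in dark colours, grouped by role. GPX2, AKR1B10, AKR1C1 and AKR1C2 sit far lower in HT29 than in LIM1215, and FTH1 lies to the right of its control in both knockdown libraries.

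Differences after knockdown were small for most members and pointed down more often than up. Each gene was described by log2 of knockdown over control, after adding 1 to each FPKM, a scale that understates the change of genes with low FPKM, and a gene was called at 1.5-fold or more, a log2 ratio of 0.585 in either direction. In bulk RNA, fewer cells expressing a gene and less RNA per cell cannot be told apart. In HT29, 5 of 36 members (13.9%) were called lower, GCLM, UGDH, NQO1, AKR1C1 and AKR1C2, against 6.91% of all genes, and 0 were called higher, against 7.87%. In LIM1215, GCLM was the 1 member called lower (6.18% of all genes), and 0 were called higher (6.63%). At 2-fold 0 members were called in either direction in either line, where 1.95% of all genes were lower and 1.85% higher in HT29, and 1.78% lower and 1.68% higher in LIM1215. In both lines at once GCLM was the 1 member called lower, as were 2.14% of all genes, and 0 members were called higher (1.88%). The first count holds members admitted by their level in LIM1215. AKR1C2, at 0.665 and 0 in HT29, passed the filter only through that line. With the filter set on the HT29 libraries alone, 4 of 33 members were lower, against 7.46% of all genes, and at a mean FPKM of at least 5, without AKR1C1 and AKR1C2, 3 of 34, against 5.62%.

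The median log2 ratio of the 36 members was −0.145 in HT29 and −0.138 in LIM1215, beside medians over all genes of 0.035 and 0.023. Of the 36, 22 (61.1%) were lower in both lines, 7 (19.4%) higher in both and 7 opposite, where all genes gave 28%, 36% and 33.8%. Among the 8365 genes of a mean FPKM of at least 10 the first share was 29.1%. The members were chosen with earlier results of these data known, so their shares describe the list and test nothing. Counting error was expressed as an exact Clopper-Pearson 95% interval of the ratio from the estimated fragments. That interval covers counting error only, and neither the variation between cultures nor the choice of scaling. In both lines this interval lay below 100% of control for 17 of the 37 members and above it for GPX1, CAT and FTH1. Over all genes with a known length, 15.0% lay below and 19.3% above in both lines, and among the 2510 with a mean FPKM of at least 50, 20.2% and 29.1%. A limma fit treated the knockdown effect as alike in both lines, with the line as a block. It gave GCLM as the 1 member lower at an adjusted p under 0.05 and 0 higher, against 1.09% and 0.858% of all genes. Its error joins the difference between the lines, with 1 residual degree of freedom, to a prior from all genes with a median of 6.06. The standard errors and p-values thus rest mostly on the spread of other genes. At an unadjusted limma p under 0.05, 8 of 36 members were lower and 2 higher, where 1308 and 1574 of all 14803 genes were. For GCLM, lower in 2 of 2 lines, the mean log2 ratio was −0.91 with a standard error of 0.14 and a limma adjusted p of 0.0345. The next were UGDH (−0.73, limma adjusted p 0.0579), FTH1 (0.50, 0.0629) and TXNRD1 (−0.44, 0.0789), all above 0.05. With all libraries set to 1 common sum of FPKM, the HT29 calls over all genes changed from 1165 higher and 1023 lower to 990 and 1372, and the member median in HT29 was −0.225.

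**Figure D2:**
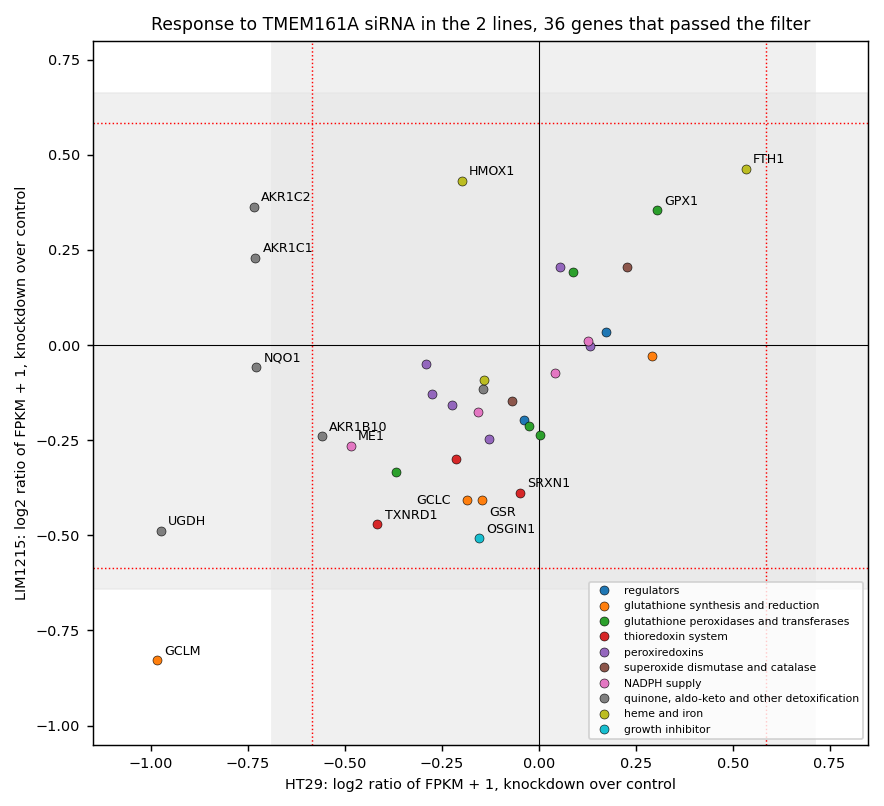
Log2 ratio of FPKM + 1, knockdown over control, in HT29 (horizontal) and LIM1215 (vertical) for the 36 members that passed the filter, coloured by role. Grey bands span the 5th to 95th percentile of all genes (−0.69 to 0.71 in HT29 and −0.64 to 0.66 in LIM1215), red dotted lines mark 1.5-fold, and GCLM at the lower left is the only member past the line in both.

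The regulators themselves moved little. NFE2L2, the gene of NRF2, stood at an FPKM of 99.1 and 96.5 in the HT29 control and knockdown and of 106.9 and 93.1 in LIM1215. This was 97.4% of control in HT29, with a counting interval of 93.4% to 101% that included no change, and 87.1% in LIM1215 (83.5% to 90.9%). KEAP1, the adaptor that presents NRF2 for degradation, went from 61.2 to 69.2 in HT29, 113% of control (108% to 119%), and from 68.0 to 69.6 in LIM1215, where the interval included 100%. NFE2L2, at a mean FPKM of 98.9, shares its locus with AGPS (19.96) and HNRNPA3 (232.5) on the opposite strand. Whether the authors' counting used strand is not given in the sources used here, so the ratios of NFE2L2 carry that reservation. GSS, TXNRD1, PRDX1, SOD1 and NQO1 also overlap other genes, none with a mean FPKM above 13.9 (MMACHC, at PRDX1).

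Glutathione synthesis held the clearest member. GCLM encodes the modifier subunit of glutamate-cysteine ligase, the first and rate-limiting enzyme of glutathione synthesis. Control and knockdown had 23.4 and 11.3 FPKM in HT29, and 25.1 and 13.7 in LIM1215. Both knockdown libraries thus lay below both controls. The log2 ratios were −0.98 and −0.83, at the 2.03 and 2.88 percentiles of all genes, and the levels were 48.4% of control in HT29 (interval 45.1% to 52.0%) and 54.6% in LIM1215 (50.9% to 58.6%). The core in the GCLM sequence shown above lies just before the RefSeq start of its window.

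GCLC, the catalytic subunit of the same ligase, was lower by less. It went from 108.1 to 94.9 in HT29 (87.8% of control, interval 85.1% to 90.6%) and, in LIM1215, from 157 to 118 (75.2%, 73.0% to 77.4%). GSR, which regenerates reduced glutathione with NADPH, went from 113.6 to 102.6 and from 104.2 to 78.4, or 90.3% and 75.3% of control. GSS, glutathione synthetase, did not share this pattern, with 45.2 and 55.6 in HT29 (123% of control) and 38.7 and 37.9 in LIM1215, where the interval of 90.5% to 106% included no change. The sum of these 4 genes after knockdown was 91.1% of control in HT29 and 76.3% in LIM1215.

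Among the glutathione peroxidases, which reduce hydrogen peroxide and lipid peroxides, the members differed in direction. GPX1, the main cytosolic peroxidase, went from 165.6 to 204.9 in HT29 and, in LIM1215, from 200.9 to 257, or 124% (117% to 130%) and 128% (122% to 135%) of control. GPX4, which reduces lipid peroxides within membranes, went from 339 to 333 in HT29 and, in LIM1215, from 289.8 to 250.1, or 98.3% (94.2% to 102%) and 86.3% (82.2% to 90.6%) of control. GPX2, the gastrointestinal peroxidase, was at 0.106 and 0.176 in the HT29 libraries, an estimated 1.6 and 2.7 fragments, and at 185 and 212 in LIM1215, where the knockdown was at 114% of control (108% to 121%). The GPX2 gene overlaps CHURC1 on the opposite strand, which had a mean FPKM of 56.1. The selenium-dependent peroxidases therefore included both higher and lower values in the same libraries.

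GSTP1, a glutathione transferase, went from 524 to 406 in HT29 and, in LIM1215, from 1046 to 830.1. Its levels were 77.5% (74.4% to 80.4%) and 79.4% (77.2% to 81.7%) of control, so the lines differed in level but stood close in ratio. MGST1, a membrane-bound transferase, was at 134.7 and 134.9 in HT29, 100.2% of control with an interval of 94.1% to 106%, and went from 193 to 164 in LIM1215, 84.8% of control (80.1% to 89.7%).

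All 3 members of the thioredoxin system were lower in both knockdown libraries, but its genes outside the set gave no common direction. In HT29 and LIM1215, TXN2 was at 100.2% and 99.0% of control, TXNRD2 at 98.5% and 111%, and TXNRD3 at 76.0% and 103%. TXNL1, at 83.9% and 83.2%, and TXNDC17, at 96.4% and 80.5%, were lower in both. TXNRD1, the NADPH-dependent reductase of thioredoxin, went from 378 to 283 in HT29 and, in LIM1215, from 207 to 149. These were 74.9% (73.6% to 76.2%) and 72.0% (70.2% to 73.9%) of control, on log2 ratios of −0.42 and −0.47. TXN, thioredoxin itself, went from 323 to 278 and from 522 to 424, or 86.2% (82.1% to 90.3%) and 81.2% (78.0% to 84.6%). SRXN1, which repairs overoxidised peroxiredoxins, went from 88.9 to 85.9 in HT29, where the interval of 92.6% to 100.8% included no change, and from 66.9 to 50.9 in LIM1215 (76.0%, 72.0% to 80.3%). None of the 3 members passed the 1.5-fold call in either line.

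The peroxiredoxins are peroxidases that mostly draw on thioredoxin, and PRDX1 had the highest mean FPKM of the set after ferritin, 852. Their summed FPKM was 2034 and 1801 in HT29 and 1733 and 1640 in LIM1215, 88.6% and 94.7% of control. PRDX1, the major cytosolic form, went from 1128 to 932 in HT29 (82.6%, 80.7% to 84.3%) and, in LIM1215, from 704 to 644 (91.5%, 88.9% to 94.1%). PRDX2 went from 190.5 to 174.3 and from 379.6 to 319.6. Its 91.5% and 84.2% of control carry the reservation that it overlaps HOOK2 on the same strand. PRDX3, in mitochondria, was at 81.6% of control in HT29 (162 to 132) and at 96.5% in LIM1215 (120.7 to 116.5), where the interval of 91.8% to 102% included no change. PRDX4, in the endoplasmic reticulum, was at 85.6% and 89.6% of control, with 120.8 and 103.4 in HT29 and 104 and 93.2 in LIM1215.

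PRDX5 and PRDX6 did not follow the other peroxiredoxins. PRDX5 had 260.6 and 271 in HT29 (104%, 99.2% to 109%) and 279.6 and 322 in LIM1215 (115%, 110.1% to 121%). Its HT29 log2 ratio of 0.06 was −0.02 with the libraries set to a common sum. PRDX6, which uses glutathione in place of thioredoxin, had 172 and 188.5 in HT29 (109.5%, 105.5% to 114%) and 145.5 and 145.1 in LIM1215, where no change was included.

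Of the enzymes that remove superoxide and hydrogen peroxide directly, SOD1, the copper and zinc superoxide dismutase, was within a few percent of control in HT29, with 306 and 292 (95.3%, 91.2% to 99.2%), and had 308 and 278 in LIM1215 (90.2%, 86.3% to 94.4%). CAT, catalase of the peroxisome, was higher in both knockdown libraries, with 23.6 and 27.8 in HT29 and 43.0 and 49.8 in LIM1215. Its levels were 118% (108% to 128%) and 116% (108% to 123%) of control. For SOD1 and CAT alike, the difference between the lines in ratio was smaller than the width of their counting intervals.

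NADPH for glutathione and thioredoxin reduction comes largely from the pentose phosphate pathway and malic enzyme. ME1, cytosolic malic enzyme, was the member of this group with the largest difference, from 21.6 to 15.2 in HT29 (70.2%, 64.7% to 76.0%) and, in LIM1215, from 30.2 to 24.9 (82.7%, 77.1% to 88.5%). TKT, transketolase, went from 628 to 563 and from 649.9 to 574.7, or 89.7% and 88.4% of control. PGD, 6-phosphogluconate dehydrogenase, had 112.7 and 123.2 in HT29 (109%, 105% to 114%) and 143.6 and 144.8 in LIM1215. TALDO1, transaldolase, had 99.9 and 102.9 in HT29 and 166 and 158 in LIM1215, with a HT29 interval of 96.9% to 109% that included no change. The oxidative and non-oxidative branches therefore gave no common direction.

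The detoxification genes held most of the HT29 calls. NQO1, a quinone reductase and standard readout of NRF2 activity, went from 536 to 323 in HT29, 60.3% of control (59.1% to 61.4%) and a log2 ratio of −0.73. In LIM1215 it had 635 and 610.1, 96.1% of control (94.5% to 97.7%) and a log2 ratio of −0.06. The difference of the log2 ratios, LIM1215 minus HT29, was 0.67, and with 1 library per group it was not tested. UGDH, which makes UDP-glucuronate for glucuronidation, went from 65.2 to 32.7 in HT29 (50.1%, 47.4% to 52.9%, log2 ratio −0.98) and, in LIM1215, from 120.8 to 85.9 (71.1%, 68.4% to 73.8%, −0.49). EPHX1, microsomal epoxide hydrolase, had 38.6 and 34.8 in HT29 and 38.3 and 35.3 in LIM1215. These were 90.2% and 92.1% of control, with a LIM1215 interval that included no change (84.3% to 100.5%). The EPHX1 gene overlaps TMEM63A on the opposite strand, which had a mean FPKM of 66.8.

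The aldo-keto reductases, which reduce aldehydes and ketones and include strong NRF2 targets, were nearly silent in HT29. AKR1B10 had 1.21 and 0.501 in HT29, an estimated 36.4 and 15.3 fragments, and 32.7 and 27.5 in LIM1215 (84.2%, 76.3% to 92.9%). AKR1C1 had 1.90 and 0.746 in HT29 and 6.01 and 7.23 in LIM1215. AKR1C2 had 0.665 in the HT29 control, was listed at 0 in the HT29 knockdown, and had 5.39 and 7.22 in LIM1215. AKR1C3 had 0.440 and 0.921 in HT29 and 1.38 and 0.474 in LIM1215, with at most 24.5 estimated fragments per library. AKR1C1 and AKR1C2 thus pointed down in HT29 and up in LIM1215. The canonical coding sequences of AKR1C1 and AKR1C2 are 98.0% identical and those of AKR1C1 and AKR1C3 91.4%, all at 1 locus of chromosome 10, so fragments may have been split between them. Summed over AKR1C1 and AKR1C2, FPKM was 2.56 and 0.746 in HT29 and 11.4 and 14.4 in LIM1215.

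Of the iron storage genes, FTH1 went the other way from most members and FTL did not. Ferritin keeps iron from reacting with peroxides, and both of its chains are NRF2 targets whose translation also depends on iron regulatory proteins. FTH1, the ferritin heavy chain, had 2366 FPKM in control and 3426 in knockdown cells of HT29, and 3130.5 and 4319 in those of LIM1215. Each knockdown library lay above its own control and above both control libraries. The levels were 145% (143% to 146%) and 138% (137% to 139%) of control, log2 ratios of 0.53 and 0.46, the highest of the 36 members in each line, at the 90.5 and 89.4 percentile of all genes and below the 1.5-fold call. The 25 annotated pseudogenes of FTH1 summed to 18.2 and 24.4 in HT29 and 21.3 and 32.8 in LIM1215.

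FTL, the ferritin light chain, did not follow the heavy chain. It had 2966 and 2689 in HT29 and 3765 and 3534 in LIM1215, 90.7% (89.3% to 91.8%) and 93.9% (92.7% to 95.1%) of control. HMOX1, heme oxygenase, which frees iron from heme, had 15.6 and 13.4 in HT29 (86.3%, 75.2% to 99.1%) and 27.9 and 38.0 in LIM1215 (136%, 124% to 150.2%). Its intervals lay on opposite sides of no change in the lines. Of the iron handling genes outside the set, TFRC, the transferrin receptor for iron uptake, went from 156.9 to 96.7 in HT29 and, in LIM1215, from 296 to 159, or 61.6% (60.1% to 63.2%) and 53.8% (52.7% to 54.8%) of control. SLC11A2, the ferrous iron transporter of endosomes and gut, went from 33.0 to 14.97 in HT29 (45.4%, 42.4% to 48.5%) and, in LIM1215, from 34.2 to 26.01 (76.1%, 71.8% to 80.7%). The iron handling genes did not move as one. STEAP3, the endosomal ferrireductase of the same uptake route, was higher in both lines, with 24.1 and 28.6 in HT29 (118%, 112% to 126%) and 34.7 and 50.7 in LIM1215 (146%, 139% to 153%). NCOA4, which delivers ferritin for degradation, was at 85.8% and 89.6% of control, and PCBP1, which loads iron into ferritin, at 105% and 110%. The genes of the iron regulatory proteins, ACO1 and IREB2, were at 82.6% and 71.3% of control in HT29 and at 118% and 131% in LIM1215.

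**Figure D3:**
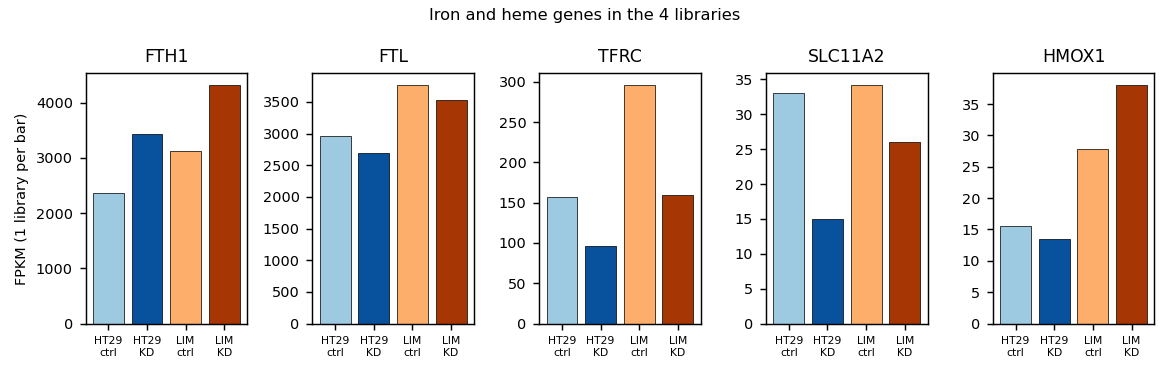
FPKM of FTH1, FTL, TFRC, SLC11A2 and HMOX1 in the 4 libraries, 1 library per bar, each panel with its own axis from 0 (KD, TMEM161A knockdown, ctrl, control, LIM, LIM1215). FTH1 is higher and TFRC and SLC11A2 lower in both knockdown libraries, while HMOX1 differs in direction between the lines.

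OSGIN1, a growth inhibitor induced by oxidative stress, had 29.0 and 25.95 in HT29 (89.5%, 81.9% to 97.7%) and 16.7 and 11.5 in LIM1215 (68.6%, 60.1% to 78.3%), a log2 ratio of −0.51 in LIM1215. It overlaps MLYCD on the same strand, which had a mean FPKM of 1.96.

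The rest of the pathway was followed in 5 lists of 89 further genes, of which 88 were matched and 81 passed the filter. SOD2 had no match. The 11 regulators of NRF2, its partners, competitors and degradation machinery, gave 0 calls in either line, with medians of 0.10 in HT29 and −0.04 in LIM1215. BACH1, a repressor that competes for the same element, had the largest difference among them in HT29, 10.3 and 14.5 (140.4% of control, 130.3% to 151%), beside 9.07 and 9.84 in LIM1215.

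Of 26 other NRF2 targets, 4 were called lower in each line (15.4%), against the 6.91% and 6.18% given above, and 1 was called higher, GSTA4 in HT29 (0.665 and 1.83). The targets called lower in both lines were PIR, CBR3 and TRIM16L. PIR, an iron-binding nuclear protein, had 35.3 and 21.8 in HT29 and 22.8 and 12.7 in LIM1215, 61.9% and 55.9% of control. TRIM16L had 23.6 and 14.9 in HT29 and 20.2 and 12.27 in LIM1215, 63.1% and 60.7% of control. CBR3, a carbonyl reductase, had 1.56 and 0.604 in HT29, an estimated 26.3 and 10.4 fragments, and 9.63 and 5.87 in LIM1215. The fourth call in HT29 was SLC7A11, the cystine importer that supplies glutathione synthesis, with 19.98 and 11.1 (55.4%, 52.6% to 58.3%), beside 23.4 and 17.6 in LIM1215 (75.2%, 71.8% to 78.8%). UGT1A6, the fourth in LIM1215, had 3.62 and 1.39 there and was listed at 0 in HT29. The median of the list was −0.055 in HT29 and −0.044 in LIM1215, nearer to 0 than that of the 36 members. The HT29 share and median include CBR1, GSTM3 and UGT1A6, which passed the filter through LIM1215 alone. Listed at 0 in both HT29 libraries, they have a log2 ratio of 0 there and could not be called.

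The 27 other glutathione, thioredoxin and oxidant enzymes gave 3 calls higher and 2 lower in HT29 and 3 higher and 0 lower in LIM1215. In HT29 these are 11.1% and 7.41%, against 7.87% and 6.91% of all genes, and in LIM1215 11.1% and 0, against 6.63% and 6.18%. The HT29 shares include NNT, which passed the filter through LIM1215 alone. Listed at 0 in both HT29 libraries, it could not be called there. SESN1, a sestrin induced by p53 that restrains growth signalling, was called higher in both, with 5.57 and 9.42 in HT29 and 4.53 and 13.01 in LIM1215, 169% and 287% of control. SESN3, a relative, was called in LIM1215 and had 0.915 and 1.17 in HT29 and 0.836 and 3.17 in LIM1215. GPX3, the secreted peroxidase, had 0.563 and 2.25 in HT29, and MSRA, a methionine sulfoxide reductase, 4.94 and 9.4, beside 2.31 and 3.16, and 6.24 and 8.02, in LIM1215. GPX8 was the remaining call in LIM1215, with 6.69 and 11.3, beside 31.97 and 22.2 in HT29. Lower in HT29 were GLRX, glutaredoxin (44.2 and 26.2), and OPLAH, which recycles oxoproline into glutathione synthesis (20.2 and 12.0). In LIM1215 these had 61.3 and 48.3, and 24.2 and 16.8, short of the call. The 11 other genes of NADPH supply gave 1 call in each direction in HT29, PGLS (30.3 and 46.1) and IDH1 (54.6 and 33.7), and 0 in LIM1215. Each HT29 call is 9.09% of the list, near the 7.87% higher and 6.91% lower of all genes. That list includes ME3, which was also at 0 in both HT29 libraries and could not be called there. Of 7 iron handling genes, TFRC and SLC11A2 were called lower in HT29 (28.6%, against 6.91% of all genes) and TFRC in LIM1215 (14.3%, against 6.18%), on lists too short for the shares to be read further.

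**Figure D4:**
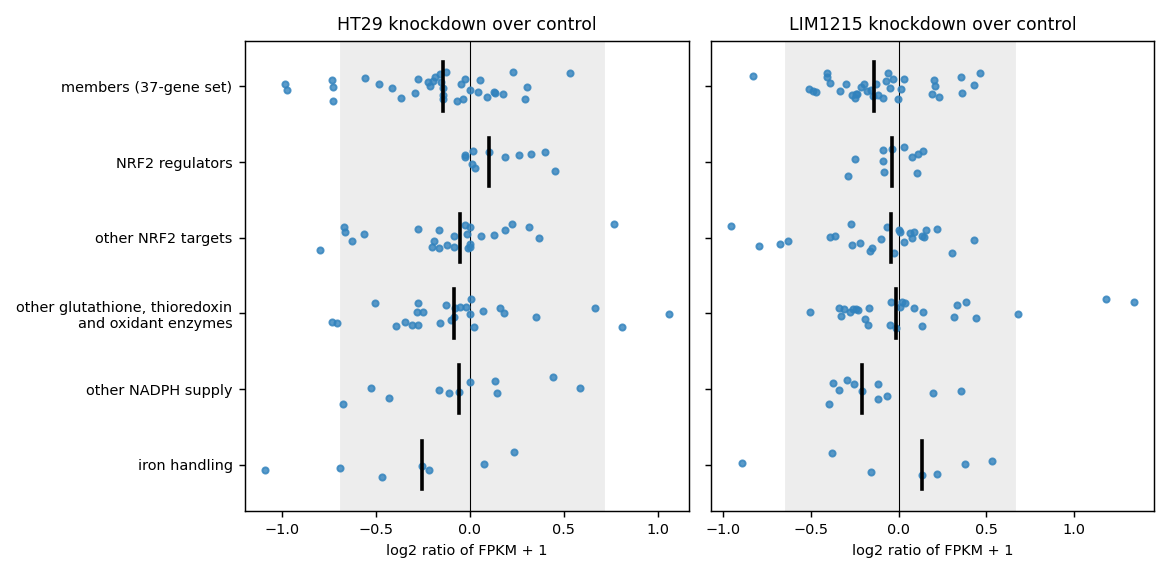
Log2 ratio of FPKM + 1, knockdown over control, for the members and the 5 related lists in HT29 (left) and LIM1215 (right), 1 point per gene that passed the filter, with vertical spread for legibility. Black bars are medians (−0.14 for the members in each line) and grey bands span the 5th to 95th percentile of all genes.

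The control libraries were compared last, to see which of these genes the lines express before any knockdown. LIM1215 had 11 of 36 members (30.6%) higher by the 1.5-fold call, against 21.8% of all genes, and 3 (8.33%) lower, against 16.3%. At 2-fold 4 members were higher and 0 lower, against 12.0% and 7.42% of all genes. The counts of higher members include GPX2, AKR1B10 and AKR1C2, which passed the filter only through their level in LIM1215. At a mean FPKM of at least 5, which still admits GPX2 and AKR1B10, 9 of 34 members were higher, against 20.5% of all genes. At that filter 3 were lower, against 12.5%. This comparison uses the same control libraries as the knockdown ratios above, so the values are given side by side and not related to each other. Over all genes the calls were 3220 higher and 2409 lower, but 2628 and 3251 after setting both libraries to a common sum, which moved the median of all genes from 0.05 to −0.11. Under that scaling 9 members were higher and 4 lower, and their median went from 0.26 to 0.08.

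The largest difference was in GPX2, with 0.106 in HT29 and 185 in LIM1215, a ratio of 1745 with a counting interval of 391 to 11675 that reflects the 1.6 estimated fragments in HT29. AKR1B10 followed, with 1.21 and 32.7, a 27.0-fold difference (19.6 to 39.3). AKR1C2 was 8.11-fold (5.80 to 11.3) and AKR1C1 3.17-fold higher in LIM1215 (2.75 to 3.68). These 4 enzymes are the members past 2-fold.

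GSTP1 (1.997-fold), PRDX2 (1.99-fold), UGDH (1.85-fold), CAT (1.82-fold), HMOX1 (1.79-fold), TALDO1 (1.66-fold) and TXN (1.62-fold) were also called higher in LIM1215. TXN and TALDO1 were short of the call with the libraries set to a common sum (log2 ratios 0.51 and 0.55) or to the upper quartile (0.54 and 0.57). Called lower in LIM1215 were TXNRD1 (207 against 378 in HT29, 0.548-fold), PRDX1 (704 against 1128, 0.624-fold) and OSGIN1 (16.7 against 29.0, 0.577-fold). TXN, the substrate, and TXNRD1, its reductase, thus differed between the lines in opposite directions. PRDX3 (0.744-fold) passed the call under the common sum alone among the scalings, with a log2 ratio of −0.60, and SRXN1 (0.753-fold) lay just short of it there. The levels of NFE2L2 and KEAP1 differed by 1.08-fold and 1.11-fold, and both turned lower in LIM1215 under the common sum and the upper quartile scaling.

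**Figure D5:**
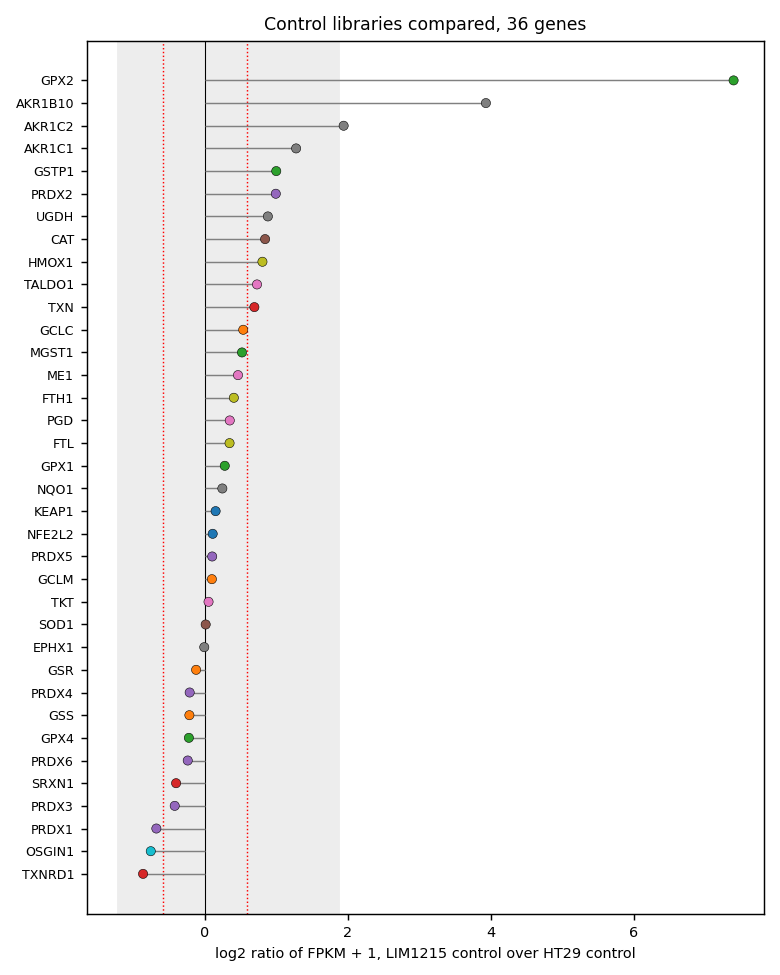
Log2 ratio of FPKM + 1, LIM1215 control over HT29 control, for the 36 members that passed the filter, in order of size and coloured by role as in the plot of the knockdown response. The grey band spans the 5th to 95th percentile of all genes (−1.22 to 1.87), red dotted lines mark 1.5-fold, and GPX2, AKR1B10 and AKR1C2 lie beyond the band.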

How the data were processed

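RNA came from 4 cell samples, and a strand-marking mRNA kit gave 1 library for each, per the labels' protocols. The deposited unit is FPKM, made by the authors. HISAT2 2.1.0, SAMtools 1.20, Cufflinks 2.2.1, Cuffdiff and the build GRCh38 are named in the submitters' processing notes, with no order. The annotation, filters, use of strand and handling of fragments shared by similar genes are not given in the sources used here. Symbols, positions and lengths came from GENCODE release 44 (GRCh38), matched by identifier for 56550 of 60658 identifiers.

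Log2 ratios of FPKM + 1 were computed with Python 3.11.15, pandas 2.3.3, NumPy 2.4.6 and SciPy 1.17.1 for genes of mean FPKM of at least 1. FPKM is relative, so a rise in abundant genes lowers all others. Depth was estimated from single-transcript genes no shorter than 500 bases, as the number of fragments per kilobase that brought most low values (78.9% to 80.6%) within 0.03 of a whole number. Fragments per gene used the canonical transcript. For AKR1C1 that has 6543 bases, and a shorter transcript would lower the estimate and widen the interval. The scripts were tested on simulated data. With 1 library per group no p-value was computed within a line. A fit across both lines, with cell line as a block, used limma 3.58.1 (R 4.3.3) with a mean-dependent prior and Benjamini-Hochberg adjustment over 14803 genes. Motif letters came from RefSeq promoter windows.

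The 37 members and the related lists were chosen with earlier results of these data known. Each member is named. Related genes that passed the filter could be named if called in the same direction in both lines or among the 3 largest rises or the 3 largest falls of a comparison. STEAP3, NCOA4, PCBP1, BACH1, OPLAH, PGLS, IDH1, NNT, SOD3, SLC40A1 and the related genes with opposite intervals in the lines were named beyond this rule, after their values were seen. The same holds for TXN2, TXNRD2, TXNRD3, TXNL1 and TXNDC17. Alternatives were a pseudocount of 0.1 or 5, no filter or a mean FPKM of at least 5, centring on the median, a common sum, upper quartile scaling, a 2-fold call and protein-coding genes only.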

Additional observations from a re-analysis of the deposited data

Results flagged for a closer look

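These genes had counting intervals on opposite sides of no change in HT29 and LIM1215. Each value is the log2 ratio in LIM1215 minus that in HT29, and with 1 library per group none of these differences was tested. Among the members the difference was 0.96 for AKR1C1, 1.099 for AKR1C2 and 0.63 for HMOX1. AKR1C1 and AKR1C2 are near-identical in sequence and low in HT29, and AKR1C2 was listed at 0 in the HT29 knockdown. The AKR1C1 interval in LIM1215, 109% to 133% of control, assumes a transcript of 6543 bases. With a shorter transcript it would be wider and may include no change. Among related genes the difference was 1.18 for GPX8, an endoplasmic reticulum peroxidase with 31.97 and 22.2 in HT29 and 6.69 and 11.3 in LIM1215 (control and knockdown). For IREB2 and ACO1, the genes of the iron regulatory proteins, it was 0.845 and 0.48. IREB2 had 28.5 and 20.3 in HT29 and 25.8 and 33.8 in LIM1215, and ACO1 had 16.6 and 13.8 in HT29 and 13.8 and 16.2 in LIM1215. For NFE2L1, a relative of NFE2L2, it was −0.65, with 146 and 193 in HT29 and 138 and 116 in LIM1215. The remaining differences were −0.77 for ALDH1L1, which was listed at 0 in the LIM1215 knockdown, −0.44 for MTHFD1, 0.28 for FECH and −0.19 for CUL3.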

How the results depend on the processing

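Of 108 member log2 ratios over the 3 comparisons, 10 changed sign under at least 1 alternative, and 0 of these were past the 1.5-fold call. The count of 5 members lower in HT29 was 3 with a pseudocount of 5 and with a mean FPKM of at least 5, since AKR1C1 and AKR1C2 no longer counted. The share of all genes called lower there changed too, from 6.91% to 3.03% and 5.62%. The count of 1 lower in LIM1215 was 2 without a filter, which admitted AKR1C3, and 2.29% of all genes were then lower. With a 2-fold call the counts were 0 lower in HT29, 0 lower in LIM1215, and 4 higher and 0 lower in the LIM1215 control. The other counts stayed within 1.5 times under every alternative run. AKR1B10 in HT29 passed the call with a pseudocount of 0.1 (log2 ratio −1.13) and under the 3 other scalings. Alternatives added after seeing the data were a filter on the 2 libraries compared, which gave 4 lower in HT29 and left the other counts as they were, and the limma fit with cell line as a block, with 1 residual degree of freedom, which gave 1 member lower and 0 higher, as did the 1.5-fold call in both lines. That fit takes the lines as repeats of each other. Within a line no library could be left out, since each group had 1. Low expression limits GPX2 and the AKR1C genes in HT29, and the variation between cultures was not measured.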

Other observations

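Of the 88 related genes, 7 were listed at 0 in both HT29 libraries and above 0 in both LIM1215 libraries, and of the 37 members 0 were. The share over all genes was not counted, so this is not read as a trait of the related genes. The epithelial marker CDX1 was also at 0 in both HT29 libraries. GSTM3, a glutathione transferase, had 76.6 in the LIM1215 control and 84.2 in the knockdown, and CBR1, a carbonyl reductase, had 64.1 and 67.1. NNT, the mitochondrial transhydrogenase that makes NADPH, had 7.07 and 9.53, and ME3, mitochondrial malic enzyme, had 9.95 and 7.30. UGT1A6 had 3.62 and 1.39, SOD3 1.21 and 2.51, and SLC40A1, the iron exporter ferroportin, 0.136 and 0.192, an estimated 7.7 and 12.2 fragments. Among related genes that passed the filter, the 2 with the lowest ratio of LIM1215 to HT29 between the controls were GPX8 and ABCC2. GPX8 had 31.97 in HT29 and 6.69 in LIM1215, and ABCC2, an exporter of glutathione conjugates, 55.6 and 20.7.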
